A study of Mus musculus with 20 samples.

Results

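The RANKL by I-BET interaction at 24 hours was examined in RAW264.7, a mouse cell line of macrophage character that can form osteoclasts in culture. Its samples were taken by their labels, with no gene's values used to pick members. It is the RANKL response in the presence of I-BET (RANKL plus I-BET minus I-BET alone) minus the RANKL response in its absence (RANKL minus untreated), on the log2 scale, for every gene. It uses 8 of the 20 libraries of the series, in 4 groups of 2. These were untreated cells at hour 0, cells given RANKL (50 ng per ml) for 24 hours, cells given I-BET (500 nM) for 24 hours, and cells given both for 24 hours. The series holds the same treatments at 4 and 14 hours. Of 50686 genes counted, 16042 had enough reads to be tested. Poly(A) RNA was sequenced in paired ends, and the labels give bone marrow as the source while naming this cell line.

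RANKL is the cytokine that commits monocytes and macrophages to become osteoclasts, the multinucleated cells that resorb bone. Its receptor RANK signals through TRAF adaptors to NF-kB and AP-1 and then to NFATc1, which drives genes of fusion and resorption, while macrophage genes and the transcription factors that hold back the osteoclast programme are switched off. BET proteins read acetylated histones and help RNA polymerase II elongate, and I-BET is a small molecule that blocks their bromodomains. An interaction above 0 means that the log2 response to RANKL was more positive with I-BET than without it, which for a gene that RANKL lowered means a smaller fall. An interaction below 0 means a smaller rise, or a larger fall.

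Total counts of the 8 libraries ran from 19051780 (untreated library 1) to 62313792 (I-BET library 1). Untreated library 2 stood apart, with 10.5% of its counts in 6 overrepresented genes, mitochondrial ribosomal RNA genes among them, against 0.393% to 1.22% in the other 19 libraries of the series. Of 8 myeloid markers, 7 were matched by symbol and all 7 exceeded a CPM of 1 in some library (CPM is a gene's count scaled to the size of its library, here the total count and for all later genes the TMM-scaled total). Their summed level was 8530 to 8580 CPM in untreated cells, 3070 to 3480 with RANKL, 6510 to 6820 with I-BET and 4860 to 5340 with both. Of 8 osteoclast markers, 6 exceeded 1 CPM and Calcr was at 0. Their sum was 69.3 to 129 CPM in untreated cells, 497 to 646 with RANKL, 9.22 to 10.6 with I-BET and 12.7 to 20.4 with both. Of 24 markers of other cell types, 1 exceeded 1 CPM (Runx2) and 8 were at 0 throughout. Untreated cells exist at hour 0 only, so RANKL alone or I-BET alone against untreated also holds 24 hours in culture. Within the interaction, the effect of time and the effect of I-BET on the RANKL response cannot be told apart. The untreated libraries are hour 0 by title, although their sample names carry a 4, as do those of the 4 hour libraries. Nothing states that the 2 libraries of a group came from separate cultures, and the spread that the p-values measure may then be technical. In bulk RNA, fewer responding cells and a weaker response per cell cannot be told apart either.

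Without I-BET, cells at 24 hours of RANKL differed from untreated cells in 3032 genes (18.9% of those tested), of which 1290 rose (8.04%) and 1742 fell (10.9%). With I-BET present in both arms, RANKL changed 42 genes (0.262%), 17 up (0.106%) and 25 down (0.156%). These 2 responses come from different libraries. The 1290 genes that rose without I-BET had a median response of 0.56 log2 there and of 0.101 with I-BET (quartiles 0.0281 and 0.199). The 1742 that fell had medians of -1.15 and -0.188 (quartiles with I-BET -0.403 and -0.0456). The second median of each pair is from libraries that did not choose the genes. The interaction itself passed the test in 843 genes (5.25% of all tested; edgeR quasi-likelihood test, adjusted p under 0.05), 632 above 0 (3.94%) and 211 below (1.32%). The genes above 0 had a median interaction of 1.35, a median RANKL response of -1.57 without I-BET and of -0.19 with it. The genes below 0 had a median interaction of -0.906, with median RANKL responses of 0.932 and 0.0555. The call rests on these same responses, so the medians describe it and test nothing.

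**Figure D1:**
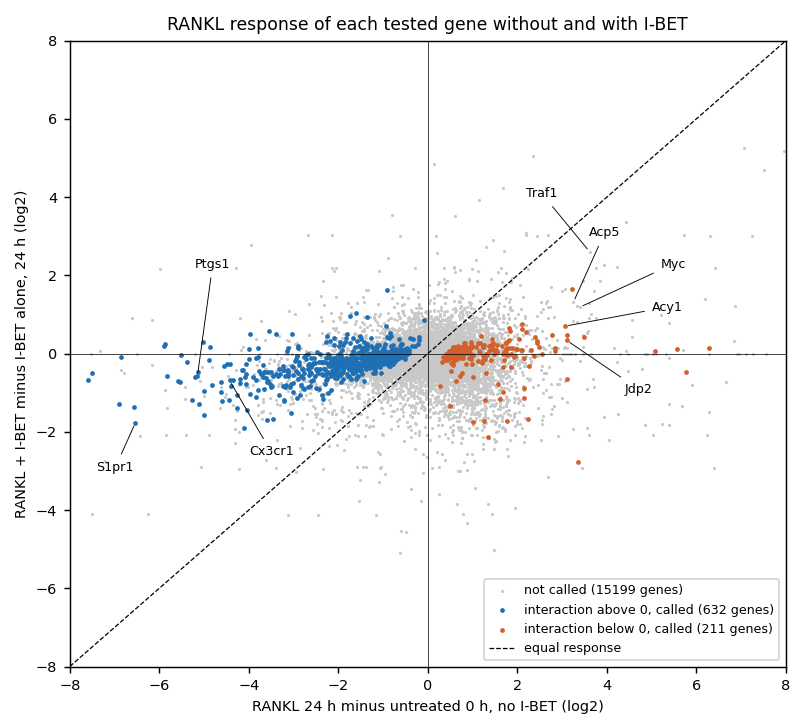
Each point is 1 of 16042 tested genes. The horizontal axis gives the fitted log2 difference of RANKL at 24 hours from untreated cells, the vertical axis that of RANKL plus I-BET from I-BET alone, and the dashed line marks equal responses. Genes with a called interaction above 0 (blue, 632) and below 0 (orange, 211) lie mostly near 0 on the vertical axis; 17 genes fall outside the axis limits of 8.

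All 843 calls had the same sign in the libraries numbered 1 and in those numbered 2, and 429 (352 above 0, 77 below) held in all 8 fits that left out 1 library. With the library number as a block, 1663 genes were above 0 (10.4% of those tested) and 1278 below (7.97%), the 843 among them. The 843 were called from these same libraries, so their shared signs and their calls with the block describe them and test nothing. The count above 0 was 420 without RANKL library 1. The count below 0 was 135 without untreated library 1, 96 without untreated library 2, 125 without I-BET library 1, and 127 and 116 without library 1 and 2 of the combination. By limma on log2 (RPKM + 1), 524 were above 0 and 285 below. The median interaction over all tested genes was -0.0246. The count of 42 under I-BET fell to 2 and 14 without I-BET library 1 or 2, to 4 and 14 without library 1 or 2 of the combination, and to 0 when only the 8 libraries were fitted (649 there at an unadjusted p under 0.05, and 143 by DESeq2 in all libraries). It was 473 with the block. The 3032 without I-BET became 5901 with the block, 1954 without untreated library 1 and 1730 without untreated library 2.

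Of the 25 gene lists, macrophage identity held the most called interactions above 0. Of 23 tested genes of macrophage identity, 13 had a called interaction, all above 0, against 5.25% of all genes in either direction, and 12 did so without untreated library 2. RANKL lowered 20 of the 23 without I-BET and 1 with it, against 10.9% and 0.156% of all tested genes. In either direction with I-BET, 9 of 23 had an unadjusted p under 0.05 and DESeq2 called 1, against 902 and 143 of all 16042. Their median RANKL response was -2.37 without I-BET and -0.468 with it, and their median interaction 1.88 against -0.0246 for all genes. Besides the receptors below, the called genes included Itgam (interaction 1.98), which encodes the integrin CD11b, Lyz2 (2.03), which encodes lysozyme, and Cybb (2.14), a subunit of the phagocyte NADPH oxidase. The summed myeloid markers above moved in the same groups, but Itgam, Cd68, Csf1r and Lyz2 belong to both sets. Lyz2 was the largest marker by median (3190 CPM, from 822 to 5260), while Cd68 ran from 294 to 503 CPM and Spi1 from 235 to 370. The part of such a shift in these values was not tested.

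Cx3cr1 (ENSMUSG00000052336, chr9:119901616-120068283 in GRCm38), the fractalkine receptor of monocytes and macrophages, stood at 697 and 826 CPM in the untreated libraries, 30.6 and 40.1 with RANKL, 398 and 375 with I-BET, and 227 and 254 with both. The RANKL libraries were the lowest by far, and no 2 of the 4 groups overlapped. The RANKL response was -4.43 ± 0.25 (SE, n = 2 per group) without I-BET and -0.68 ± 0.22 with it. The interaction was 3.75 ± 0.32 (edgeR adjusted p 1.75e-05). Mpeg1, which encodes the pore-forming protein perforin-2, stood at 359 and 522 CPM in untreated cells, 30.9 and 45.3 with RANKL, 448 and 492 with I-BET, and 233 and 320 with both. I-BET alone overlapped untreated cells, while RANKL alone lay below every other group. Its interaction was 2.76 ± 0.47 (adjusted p 0.00259). Fcgr1, the high affinity receptor for IgG, stood at 37.2 and 46.5 CPM untreated, 1.66 and 4.44 with RANKL, 11.3 and 11.8 with I-BET, and 6.87 and 10.1 with both. I-BET alone was itself below untreated here, by -1.86 ± 0.43 log2, so the level with both did not approach the untreated one. The interaction of Fcgr1 was 3.34 ± 0.63 (adjusted p 0.00511).

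Receptors of chemotaxis and innate sensing showed the same direction. Over all tested genes, 3.94% had a called interaction above 0 and 1.32% below. Of 17 tested chemotaxis and migration receptors, 9 had a called interaction above 0 and 1 below. Some fits that left out 1 library called fewer above 0, and some lost the call below 0. Their median RANKL response was -1.84 without I-BET and -0.388 with it. The 1 below was Ccr1, a chemokine receptor that RANKL raised without I-BET. S1pr1, the sphingosine 1-phosphate receptor that guides precursors between blood and bone, stood at 9.42 and 14.2 CPM untreated, 0.0496 and 0.202 with RANKL, 8.05 and 6.94 with I-BET, and 1.83 and 2.56 with both. It was close to 0 with RANKL alone (2 and 8 counts), and the combination lay between RANKL and the other groups. Its interaction was 4.76 ± 0.58 (adjusted p 0.000235), and 4.1 to 6.07 with 1 library left out. P2ry6, a receptor for the nucleotide UDP, stood at 75.9 and 78.7 CPM untreated, 4.93 and 6.84 with RANKL, 38.5 and 31.7 with I-BET, and 26.8 and 22.2 with both, without overlap between groups. Its interaction was 3.19 ± 0.29 (adjusted p 2.26e-05).

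Of 18 Toll-like receptors and co-receptors, which sense microbial molecules, 9 had a called interaction, all above 0 (6 without untreated library 2). Of all tested genes, 3.94% had a called interaction above 0. RANKL lowered 12 of these receptors without I-BET, against 10.9% of all tested genes. With I-BET edgeR called 0, 5 had an unadjusted p under 0.05 and DESeq2 called 1, against 42, 902 and 143 of 16042 tested genes. The median response was -1.06 without I-BET and -0.221 with it. The called genes included Tlr2 (1.60), Tlr4 (1.21) and Tlr7 (1.43). Irak3, an inhibitor of Toll-like receptor signalling, stood at 13.4 and 11.5 CPM untreated, 2.77 and 2.52 with RANKL, 20.2 and 16.8 with I-BET, and 15 and 15.9 with both. Only the RANKL libraries were low, and its interaction was 1.96 ± 0.27 (adjusted p 0.00052). Tlr13, a sensor of bacterial ribosomal RNA, stood at 89.5 and 94.0 CPM untreated, 3.57 and 3.98 with RANKL, 27.6 and 12.9 with I-BET, and 9.35 and 8.30 with both. All 3 treated groups were below untreated, and the interaction was 3.40 ± 0.37 (adjusted p 8.43e-05). Tlr9, a sensor of unmethylated DNA, had an interaction of 1.90 ± 0.44 (adjusted p 0.0195) that lost its call without untreated library 1 or 2, I-BET library 2, RANKL library 2 or library 1 of the combination, with adjusted p values from 0.0515 to 0.108.

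Of 13 tested transcription factors that hold back osteoclast genes, 5 had a called interaction, all above 0, with and without untreated library 2, and 11 were above 0 with the block. Of all tested genes, 3.94% had a called interaction above 0. With the block, 10.4% of all tested genes were above 0. RANKL lowered 10 of the 13 without I-BET and 1 with it, against 10.9% and 0.156% of all tested genes. In either direction with I-BET, 4 of 13 had an unadjusted p under 0.05 and DESeq2 called 1, against 902 and 143 of all 16042. Their median response was -1.44 without I-BET and -0.459 with it. Irf8, Id1, Id3 and Klf4 (interaction 1.18) were among the called genes.

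Irf8 (ENSMUSG00000041515, chr8:120736358-120756694), a repressor of osteoclast genes in precursors, stood at 51.9 and 74.0 CPM untreated, 4.14 and 6.26 with RANKL, 90.9 and 109 with I-BET, and 55.4 and 66.4 with both. RANKL alone was lowest, I-BET alone was highest, and the combination lay within the untreated range. Its interaction was 2.89 ± 0.45 (adjusted p 0.00155). Id3, an inhibitor of basic helix-loop-helix factors, stood at 25.3 and 19.9 CPM untreated, 1.19 and 1.51 with RANKL, 17.5 and 11.1 with I-BET, and 15.8 and 8.24 with both. The 2 groups with I-BET overlapped each other and lay above RANKL alone, with an interaction of 3.80 ± 0.43 (adjusted p 0.000126). Bcl6, a repressor that targets osteoclast genes, did not pass the test. It stood at 56.1 and 44.2 CPM untreated, 22.4 and 23.8 with RANKL, 29.2 and 26.9 with I-BET, and 22 and 22.5 with both, an interaction of 0.78 ± 0.24 (adjusted p 0.0879; 0.000756 with the block, 0.0347 by DESeq2 and 0.0201 without a filter). Its level with both agents was not above its level with RANKL alone.

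Other genes with large interactions above 0 differed in their level with I-BET alone. Ptgs1 (ENSMUSG00000047250), the prostaglandin synthase COX-1, stood at 21.7 and 23.7 CPM untreated, 0.570 and 0.706 with RANKL, 27.0 and 19.7 with I-BET, and 16.4 and 14.8 with both. RANKL alone was the only group near 0, and the interaction was 4.57 ± 0.33 (adjusted p 6.13e-06). Alox5, the lipoxygenase that begins leukotriene synthesis, stood at 41.5 and 61.8 CPM untreated, 1.56 and 3.03 with RANKL, 60.3 and 67.5 with I-BET, and 46.4 and 59.9 with both. Again RANKL alone was low. Untreated cells overlapped both groups with I-BET, which did not overlap each other, and its interaction was 4.23 ± 0.46 (adjusted p 8.75e-05). Ighm, the immunoglobulin mu heavy chain gene, had an interaction of 4.25 ± 0.39, and Dgkg, a diacylglycerol kinase, one of 4.07 ± 0.52, which was 0.393 and not called (adjusted p 0.355) on log2 (RPKM + 1), a scale that shrinks changes of low genes. Dgkg had 4 and 10 counts in the RANKL libraries. Hpgd, which inactivates prostaglandins, stood at 7.04 and 12.1 CPM untreated, 0.149 and 0.404 with RANKL, 24.0 and 23.6 with I-BET, and 5.75 and 13.6 with both. The RANKL libraries held 6 and 16 counts of Hpgd. I-BET alone lay above untreated by 1.3 ± 0.51 log2 (adjusted p 0.102), and the interaction was 3.82 ± 0.88 (adjusted p 0.0195). Its call was lost without untreated library 2, RANKL library 1, I-BET library 1 or 2 or library 2 of the combination (0.0613 to 0.126), and on log2 (RPKM + 1) it was 1.17 (adjusted p 0.154).

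Cav2 (ENSMUSG00000000058), which encodes caveolin-2, was below untreated with I-BET alone. It stood at 40.6 and 43.4 CPM untreated, 2.65 and 3.43 with RANKL, 7.90 and 6.59 with I-BET, and 8.25 and 7.74 with both. Each agent alone lay below untreated, and the combination overlapped I-BET alone. The RANKL response was -3.79 ± 0.22 without I-BET and 0.14 ± 0.20 with it, and the interaction was 3.93 ± 0.29 (adjusted p 6.13e-06). Against RANKL alone at the same hour, the combination was higher by 1.39 ± 0.21 log2, whereas for Ptgs1 the same difference was 4.61 ± 0.26. Cxcl16, a chemokine of macrophages, was also below untreated with I-BET alone, at 149 and 159 CPM untreated, 20.7 and 27.3 with RANKL, 47.2 and 40.0 with I-BET, and 44.0 and 42.8 with both. Its interaction was 2.67 ± 0.21 (adjusted p 8.9e-06). So was the glutathione peroxidase gene Gpx1 (1.02 ± 0.24, adjusted p 0.0242), at 266 and 304 CPM untreated, 145 and 176 with RANKL, 135 and 150 with I-BET, and 158 and 167 with both. The combination differed from RANKL alone by 0.02 ± 0.17 log2 in Gpx1. Its interaction was not called without untreated library 2, I-BET library 1 or 2, RANKL library 1 or either library of the combination (0.0571 to 0.11).

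**Figure D2:**
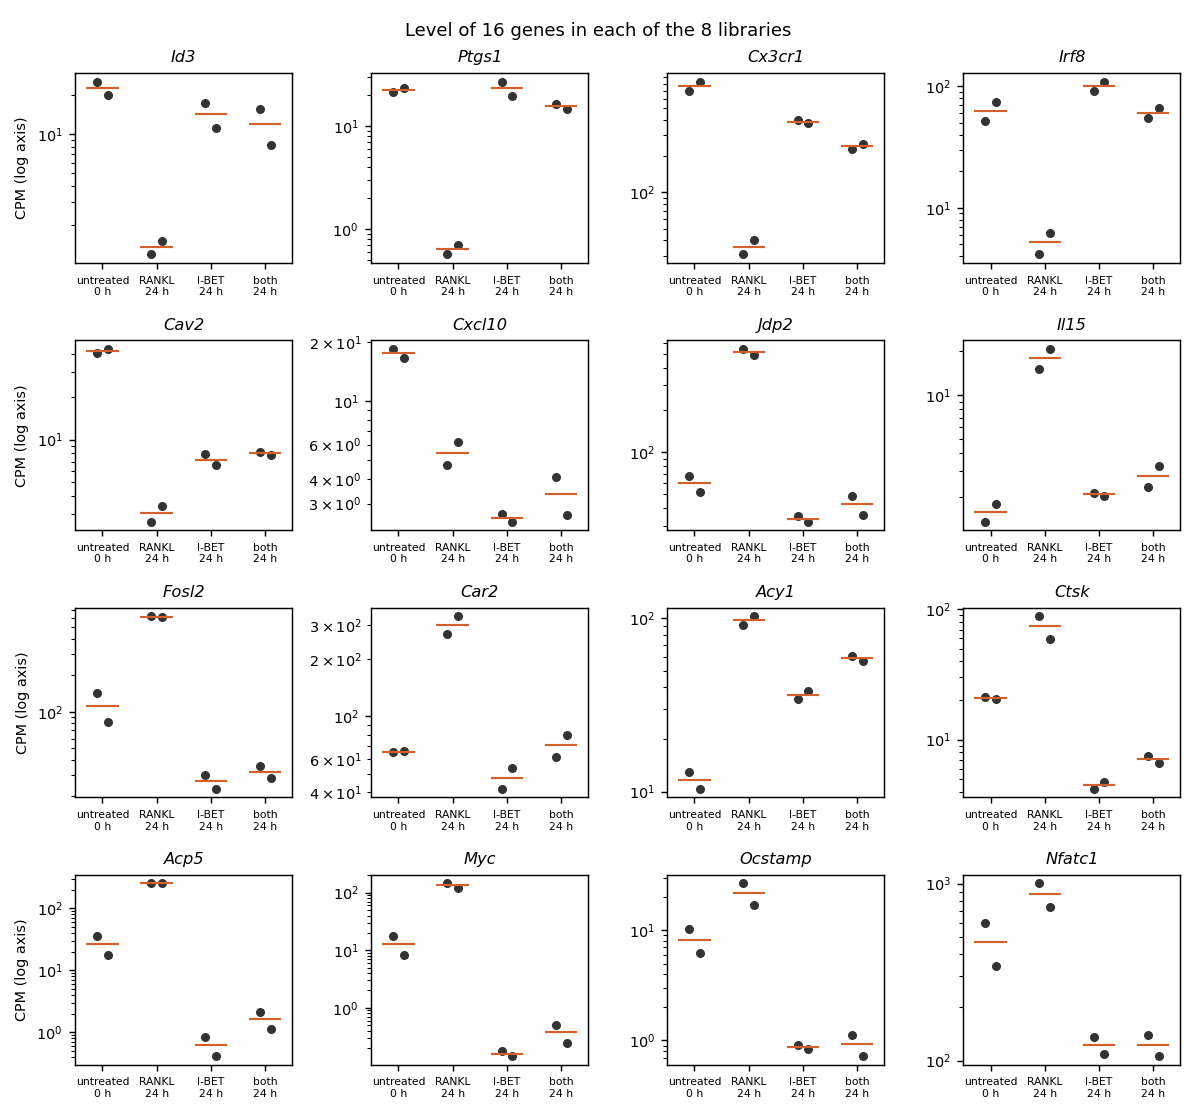
CPM on a log axis in each of the 8 libraries for 16 genes; points are single libraries and bars the mean of 2. Ptgs1, Irf8 and Id3 are low with RANKL alone, Cav2 and Cxcl10 are low in all treated groups, Jdp2 and Il15 are high with RANKL alone, and Acp5, Myc and Ocstamp are lowest in both groups with I-BET.

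Interferon-stimulated genes, whose products act against viruses, had 4 called interactions among 32 tested, all above 0 (3 without untreated library 2). Of all tested genes, 3.94% had a called interaction above 0. RANKL lowered 17 of the 32 without I-BET, against 10.9% of all tested genes. With I-BET edgeR called 0, DESeq2 0 as well, and 1 had an unadjusted p under 0.05 (42, 143 and 902 of 16042 tested genes). The median responses were -0.855 and -0.0369. The 4 were Cxcl10, Cmpk2 (2.02), Ifit2 and Stat2. Cxcl10 (ENSMUSG00000034855), an interferon-induced chemokine, stood at 18.4 and 16.5 CPM untreated, 4.73 and 6.18 with RANKL, 2.65 and 2.43 with I-BET, and 4.11 and 2.62 with both. I-BET alone was lower than RANKL alone, and the combination was not above RANKL alone (-0.70 ± 0.25 log2), although the interaction was 2.07 ± 0.36 (adjusted p 0.00292). Ifit2, an inhibitor of viral translation, was below untreated in all treated groups, at 14.0 and 11.6 CPM untreated, 4.53 and 4.89 with RANKL, 6.19 and 4.53 with I-BET, and 5.12 and 4.96 with both. Its interaction was 1.34 ± 0.27 (adjusted p 0.00725), and the combination differed from RANKL alone by 0.10 ± 0.19. Ifit genes are near copies of each other, so the counting could have split their reads. Stat2, a transducer of interferon signals, stood at 29.6 and 28.9 CPM untreated, 15 and 17.7 with RANKL, 32.3 and 35.6 with I-BET, and 29.2 and 35.9 with both. Only RANKL alone was low. Its interaction of 0.78 ± 0.21 (adjusted p 0.0472) was not called without untreated library 1 or 2, I-BET library 1 or 2, RANKL library 1 or library 2 of the combination (0.0864 to 0.215).

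Interferon-stimulated genes are known for a shared promoter element, so promoters were searched. RefSeq start sites of GRCm38.p6 were matched by symbol, and windows from 250 bases before to 50 after a start were searched on both strands for GAAA, any 2 bases and GAAA again (the core of the interferon-stimulated response element, ISRE), TGANTCA (the AP-1 site) and CACGTG (the E-box that MYC and other factors bind). The ISRE core was in 53.6% of 28 windows of 23 interferon-stimulated genes, against 3.44% of all 32851 windows. It was in 3.61% of the 610 windows of genes above 0 (461 of 632 genes matched) and in 3.95% of the 177 windows of genes below 0 (138 of 211 matched). The AP-1 site was in 8.69% of windows above 0 and 4.52% below, with 5.23% over tested genes and 7.81% over all windows. The E-box was in 8.85% above 0, 13.6% below, 9.84% over tested genes and 7.15% over all windows. These shares are descriptions, and a match is not a site of binding. Windows of 3 named genes are shown as examples that hold a searched motif: Cxcl10 (ISRE core and AP-1 site) of the interferon-stimulated genes, Cav2 (AP-1 site) with an interaction above 0, and Acy1 (E-box), described below, with one below 0. Each line gives the 250 bases before the start, 5′ to 3′ on the gene's strand, with the motif in capitals. They lie at chr5:92348890-92349139 (minus strand), chr6:17280935-17281184 (plus strand) and chr9:106438237-106438486 (minus strand).
Cxcl10: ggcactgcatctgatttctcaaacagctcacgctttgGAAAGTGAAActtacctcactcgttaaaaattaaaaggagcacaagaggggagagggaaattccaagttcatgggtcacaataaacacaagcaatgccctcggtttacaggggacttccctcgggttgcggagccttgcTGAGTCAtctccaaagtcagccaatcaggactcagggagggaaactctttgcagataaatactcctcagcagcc
Cav2: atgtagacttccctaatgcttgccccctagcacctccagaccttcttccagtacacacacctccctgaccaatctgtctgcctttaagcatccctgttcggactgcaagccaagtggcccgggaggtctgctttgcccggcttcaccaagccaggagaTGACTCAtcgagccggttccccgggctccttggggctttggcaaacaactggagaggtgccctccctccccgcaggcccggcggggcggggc
Acy1: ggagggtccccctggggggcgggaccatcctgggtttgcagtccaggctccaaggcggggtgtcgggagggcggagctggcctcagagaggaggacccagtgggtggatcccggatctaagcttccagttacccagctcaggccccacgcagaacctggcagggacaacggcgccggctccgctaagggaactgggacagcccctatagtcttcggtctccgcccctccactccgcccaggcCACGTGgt

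Genes with an interaction below 0 were mostly genes that RANKL raised without I-BET and raised less, or not at all, with it. Jdp2 (ENSMUSG00000034271, chr12:85599105-85639878), an AP-1 family factor that takes part in osteoclast formation, stood at 68.1 and 51.9 CPM untreated, 543 and 491 with RANKL, 35.2 and 32 with I-BET, and 49.0 and 35.9 with both. RANKL alone was far above every other group, and the combination lay close to I-BET alone. The RANKL response was 3.11 ± 0.19 without I-BET and 0.34 ± 0.18 with it, an interaction of -2.77 ± 0.26 (edgeR adjusted p 3.01e-05). Il15 (ENSMUSG00000031712), a cytokine of lymphocyte survival, stood at 1.35 and 1.77 CPM untreated, 15 and 20.7 with RANKL, 2.13 and 2.02 with I-BET, and 2.34 and 3.23 with both. Only RANKL alone was high, and the interaction was -3.07 ± 0.33 (adjusted p 8.75e-05). Bbs9, a component of the ciliary BBSome, stood at 7.82 and 7.68 CPM untreated, 47.9 and 42.6 with RANKL, 7.41 and 6.90 with I-BET, and 7.22 and 6.94 with both. The RANKL response was 2.54 ± 0.14 without I-BET and -0.02 ± 0.13 with it, so the interaction (-2.56 ± 0.19, adjusted p 6.13e-06) was as large as the response.

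A few of these genes were also above untreated, or near 0, with I-BET alone. Acy1, an aminoacylase, stood at 12.9 and 10.4 CPM untreated, 91.6 and 103 with RANKL, 34.0 and 38.1 with I-BET, and 61.0 and 56.4 with both. All treated groups were above untreated and did not overlap, and the combination lay between I-BET and RANKL. Its RANKL response was 3.07 ± 0.15 without I-BET and 0.70 ± 0.14 with it, an interaction of -2.37 ± 0.20 (adjusted p 1.75e-05). Serpinb6b, a serine protease inhibitor, stood at 3.42 and 3.01 CPM untreated, 21 and 22.5 with RANKL, 0.237 and 0.249 with I-BET, and 0.346 and 0.334 with both. Both groups with I-BET were far below untreated, with an interaction of -2.28 ± 0.39 (adjusted p 0.00271). The remaining large interactions below 0 were Gstt3, a glutathione transferase (-2.63 ± 0.37; a member of a family of near copies), the transcript 1700109H08Rik (-2.32 ± 0.40) and Ier3, an immediate early gene. Ier3 stood at 13.5 and 14.1 CPM untreated, 29.1 and 104 with RANKL, 31.0 and 29.7 with I-BET, and 20.1 and 28.4 with both, so a single RANKL library was high. Its interaction of -2.59 ± 0.61 (adjusted p 0.022) was -1.39 without RANKL library 2 (adjusted p 0.0614), and its call was also lost without untreated library 1 or 2, I-BET library 1 or 2 or library 1 of the combination (0.0572 to 0.109).

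NF-kB is an early transcription factor of RANK signalling and induces its own inhibitors. Among 24 NF-kB feedback and target genes, 5 had a called interaction below 0 and 2 above. The counts below 0 were 1 without untreated library 2, 3 without I-BET library 1, 3 without I-BET library 2, 3 without either RANKL library and 1 without library 2 of the combination, and 12 with the block. The counts above 0 were 3 without untreated library 2, 3 without I-BET library 1, 4 without library 2 of the combination and 5 with the block. Over all tested genes, 1.32% had a called interaction below 0 and 3.94% above, and with the block 7.97% and 10.4%. RANKL raised 13 of the list without I-BET and 3 with it, against 8.04% and 0.106% of all tested genes. The median responses of the list were 0.592 and 0.209. With I-BET, DESeq2 called 7 in either direction and 12 had an unadjusted p under 0.05, against 143 and 902 of all 16042 tested genes. The 5 below were Nfkbia (-1.07), Nfkbie, Tnfaip3, Relb (-0.90) and the superoxide dismutase gene Sod2 (-0.43), and the 2 above were Tnfrsf1b and Bcl2a1b (1.65). Nfkbie, an inhibitor of NF-kB, stood at 17.1 and 12.8 CPM untreated, 48.3 and 55.2 with RANKL, 25.3 and 24.1 with I-BET, and 36.8 and 24.6 with both. The combination overlapped I-BET alone and lay below RANKL alone, with an interaction of -1.49 ± 0.25 (adjusted p 0.00228). Tnfaip3, the deubiquitinase A20, stood at 14.8 and 9.81 CPM untreated, 17.4 and 20.5 with RANKL, 25.6 and 15.9 with I-BET, and 14.7 and 10.7 with both. Its groups overlapped in part. Its interaction of -1.34 ± 0.34 (adjusted p 0.0351) was not called without untreated library 2, I-BET library 1, RANKL library 1 or 2 or library 2 of the combination (0.0628 to 0.194). Tnfrsf1b, the second TNF receptor, stood at 32.8 and 33.8 CPM untreated, 6.54 and 6.05 with RANKL, 50.9 and 43.9 with I-BET, and 38.8 and 33.3 with both. Only RANKL alone was low, with an interaction of 2.01 ± 0.22 (adjusted p 0.000106).

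Genes of bone resorption were described as a list, with each member tested by itself. Of 19 resorption genes, 10 rose and 2 fell with RANKL without I-BET (median 0.535). Over all tested genes 8.04% rose and 10.9% fell, and 1.32% had a called interaction below 0 (7.97% with the block, and 10.4% above). With I-BET the median was 0.123, and edgeR and DESeq2 called 0, against 42 and 143 of all 16042 tested genes. An unadjusted p under 0.05 was seen in 6, against 902 of all 16042. The interaction was below 0 in 2 (Car2 and Ctsk), also without untreated library 2, and in 8 with the block (1 above), 6 with the block and without untreated library 2 (where 3.6% of all genes were below 0 and 8.08% above). Car2, the carbonic anhydrase that supplies protons for resorption, stood at 65.2 and 65.7 CPM untreated, 268 and 334 with RANKL, 41.8 and 53.7 with I-BET, and 61.2 and 79.7 with both. RANKL alone stood above all the others, the combination overlapped untreated cells, and the interaction was -1.64 ± 0.22 (adjusted p 0.000526). Ctsk, the collagen-degrading cathepsin K, stood at 21.3 and 20.5 CPM untreated, 88.6 and 59.4 with RANKL, 4.20 and 4.76 with I-BET, and 7.44 and 6.67 with both. Both groups with I-BET lay below untreated. The interaction was -1.17 ± 0.24 (adjusted p 0.00899, and 0.0682 when only the 8 libraries were fitted).

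Most hallmark osteoclast genes had no called interaction in the main fit, although their levels with I-BET were far below those with RANKL alone. Acp5, the tartrate-resistant acid phosphatase, stood at 36.0 and 17.5 CPM untreated, 253 and 254 with RANKL, 0.837 and 0.416 with I-BET, and 2.11 and 1.11 with both. The combination was at -7.30 log2 against RANKL alone, the 2 groups with I-BET lay below untreated, and within them RANKL gave a response of 1.31 ± 0.57 against 3.25 ± 0.44 without I-BET. The interaction was -1.94 ± 0.72 (adjusted p 0.164; 0.016 with the block, 0.0407 by DESeq2, 0.00515 on log2 (RPKM + 1) and 2.27e-09 without a low-count filter). Myc, a transcription factor of cell growth, stood at 17.7 and 8.32 CPM untreated, 145 and 123 with RANKL, 0.174 and 0.146 with I-BET, and 0.508 and 0.241 with both. Its RANKL response was 3.39 ± 0.34 without I-BET and 1.19 ± 0.70 with it, an interaction of -2.21 ± 0.84 (adjusted p 0.18; 0.0439 without untreated library 1, 0.0162 by DESeq2, 0.000221 on log2 (RPKM + 1), 0.00602 on log2 (RPKM + 0.1) and 5.17e-05 without a filter). Ocstamp, a membrane protein of osteoclast fusion, stood at 10.4 and 6.19 CPM untreated, 26.8 and 17.1 with RANKL, 0.916 and 0.831 with I-BET, and 1.12 and 0.724 with both. The groups with I-BET overlapped each other, and the interaction was -1.36 ± 0.44 (adjusted p 0.106; 0.0416 without untreated library 1, 0.0418 without RANKL library 2, 0.031 with the block, 0.0394 by DESeq2, 0.0318 on log2 (RPKM + 1) and 0.00273 without a filter).

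Nfatc1, the master transcription factor of osteoclasts, stood at 600 and 342 CPM untreated, 1005 and 740 with RANKL, 137 and 109 with I-BET, and 139 and 106 with both. The RANKL response was 0.89 ± 0.37 without I-BET (adjusted p 0.122) and -0.01 ± 0.37 with it, and the interaction -0.90 ± 0.53 (adjusted p 0.431; 0.00105 with the block and 0.000656 without a filter). Atp6v0d2, a subunit of the proton pump, had an interaction of -1.78 ± 0.93 (adjusted p 0.36; 1.01e-05 with the block and 3.56e-09 without a filter). The other fusion gene Dcstamp had -0.28 ± 0.43 (0.84) and the AP-1 factor Fos -0.27 ± 0.40 (0.833), with responses of 1.17 ± 0.29 without and 0.89 ± 0.31 with I-BET for Dcstamp. Without untreated library 2 or RANKL library 1 the rise of Dcstamp without I-BET was not called (0.0827 to 0.14). Tnfrsf11a, the RANK receptor itself, stood at 383 and 232 CPM untreated, 340 and 227 with RANKL, 101 and 54.1 with I-BET, and 82.9 and 60.6 with both. Both groups with I-BET lay below both groups without it, with an interaction of 0.01 ± 0.55 (adjusted p 1). Mmp9, a matrix metalloproteinase, had 6 counts in the untreated libraries together, 2166 with RANKL, 0 with I-BET and 10 with both, so no interaction fold is given. Csf1r, the receptor of the macrophage growth factor M-CSF, had an interaction of 0.33 ± 0.21 (adjusted p 0.471). A missed threshold does not show equal responses.

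Among 19 osteoclast transcription factors, 3 had an interaction below 0 (Fosl2, Ppargc1b and Relb) and 1 above (Tfeb), against 1.32% and 3.94% of all tested genes. The counts below and above were 1 and 0 without untreated library 2, 4 and 0 without untreated library 1, 2 and 0 without I-BET library 1 or 2, 1 and 0 without RANKL library 1, 3 and 0 without library 1 of the combination, and 1 and 0 without its library 2. With the block they were 7 and 2, against 7.97% below and 10.4% above over all tested genes. Fosl2 (ENSMUSG00000029135), a Fos-related AP-1 factor, stood at 142 and 82.0 CPM untreated, 617 and 605 with RANKL, 30.0 and 23.1 with I-BET, and 35.7 and 28.2 with both. RANKL alone was high, the groups with I-BET lay below untreated and overlapped, and the interaction was -2.19 ± 0.36 (adjusted p 0.00228). Ppargc1b, a coactivator of mitochondrial genes, had an interaction of -1.05 ± 0.24 (adjusted p 0.0184), not called without untreated library 2, I-BET library 1, RANKL library 1 or library 2 of the combination (0.0748 to 0.0985). Tfeb, a factor of lysosome genes, stood at 24.0 and 27.5 CPM untreated and 5.97 and 10.4 with RANKL, with an interaction of 1.43 ± 0.38 (adjusted p 0.0466) that was called in no fit with a library left out except that without RANKL library 2 (0.084 to 0.182).

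Of 13 fusion genes, 3 (23.1%, against 5.25% of all genes) had a called interaction, all above 0, also without untreated library 2 (1 below without untreated library 1 or RANKL library 2). Sirpa, the receptor of CD47 on macrophages, stood at 579 and 585 CPM untreated, 178 and 175 with RANKL, 705 and 633 with I-BET, and 644 and 565 with both. Only RANKL alone was low, with an interaction of 1.57 ± 0.15 (adjusted p 4.28e-05). The remaining ones were the tetraspanin gene Tspan13 (2.60 ± 0.33) and the sheddase gene Adam10 (0.73 ± 0.14). Of 25 genes of RANK signalling, 3 (12%) had a called interaction, all above 0 (2 without untreated library 2, 2 and 1 below without library 1 of the combination, 7 and 3 with the block). Of all tested genes, 3.94% were above 0 in the main fit, and with the block 10.4% were above and 7.97% below. Trem2, a costimulatory receptor, stood at 220 and 283 CPM untreated, 35.1 and 47.8 with RANKL, 99.7 and 100 with I-BET, and 68.5 and 72.9 with both, without overlap between groups. Its interaction was 2.10 ± 0.37 (adjusted p 0.00304). Map3k14, the NF-kB inducing kinase of the alternative pathway, had 1.02 ± 0.17 (adjusted p 0.00187). Plcg2, a phospholipase upstream of calcium signals, had 0.39 ± 0.11 (adjusted p 0.0495), a call lost without any 1 of the 8 libraries (0.0613 to 0.155).

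Further lists covered other functions of the cells, and 3.94% of all tested genes had a called interaction above 0 (5.25% in either direction). Of 23 chemokine and cytokine genes, 2 were above 0 (Cxcl16 and Cxcl10) and 3 without untreated library 2. Of 24 markers of other cell types, 2 were tested and 0 called by edgeR (0 at an unadjusted p under 0.05, 0 by DESeq2). Of 16 antigen presentation genes, 3 were above 0 (2 without untreated library 2), led by Nlrc5, the activator of MHC class I genes (1.15 ± 0.15, adjusted p 0.000338), and the peptide trimming gene Erap1 (0.89 ± 0.15). The third, H2-DMa, lost its call without any 1 of the 8 libraries (0.0716 to 0.112). Among 19 genes of NRF2, glutathione and iron, Gpx1 and the ferritin heavy chain gene Fth1 were above 0 (0.92 ± 0.15, adjusted p 0.00173), and Fth1 alone where Gpx1 lost its call. Among 13 BCL2 family genes 2 were above 0, Bcl2a1d (1.95 ± 0.34) and Bcl2a1b, which are near copies of each other. Of 17 histone genes, 3 were above 0 and 1 without untreated library 2, I-BET library 1, I-BET library 2 or library 1 of the combination. Hist1h1c, a linker histone gene, stood at 31.1 and 43.7 CPM untreated, 14.6 and 14.1 with RANKL, 107 and 127 with I-BET, and 140 and 129 with both. Both groups with I-BET were above untreated, and the interaction was 1.59 ± 0.29 (adjusted p 0.00401). Hist1h2bc (0.99, adjusted p 0.0355) and H3f3b (0.53, 0.0378) were not called in 5 and 7 of the 8 fits with a library left out, those without untreated library 2, I-BET library 1 or 2 and library 1 of the combination among them (up to 0.186 and 0.165). RANKL library 2 was the other such library for Hist1h2bc, and untreated library 1, RANKL library 1 and library 2 of the combination were the others for H3f3b. Histone genes are near copies too.

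In the ATF4 list, which holds amino acid supply genes, 3 of 21 were below 0, against 1.32% of all tested genes (7.97% with the block). The count was 1 without any 1 library other than RANKL library 1, whose omission gave 8, and it was 14 with the block. Mthfd2, a mitochondrial folate enzyme, stood at 134 and 143 CPM untreated, 230 and 280 with RANKL, 113 and 127 with I-BET, and 120 and 126 with both. Only RANKL alone was high, and the interaction was -0.84 ± 0.15 (adjusted p 0.00292). The stress factor gene Atf4 itself (-0.84 ± 0.21, adjusted p 0.034) and the asparagine synthetase gene Asns (-0.74 ± 0.19, adjusted p 0.042) kept their call in just 1 of the fits with a library left out, the one without RANKL library 1, and were -0.538 and -0.472 without RANKL library 2 (0.117 and 0.148). Of 38 genes of ribosome biogenesis, RANKL raised 20 without I-BET, against 8.04% of all tested genes. With I-BET edgeR and DESeq2 called 0, and 4 had an unadjusted p under 0.05, against 42, 143 and 902 of 16042 tested genes. The helicase gene Ddx21 alone had a called interaction (-0.52 ± 0.13, adjusted p 0.0282), called again only without RANKL library 2, where 2 genes of the list were below 0, while 13 were below 0 with the block. No member was called among 12 MYC and MAX network genes (1 at an unadjusted p under 0.05, 1 by DESeq2, and 1 below 0 without untreated library 1), 12 genes of BET proteins and P-TEFb (1 and 0), 23 of cholesterol synthesis (1 and 0), 26 of oxidative phosphorylation (0 and 0), 19 of glycolysis (2 and 1, and 1 above 0 without RANKL library 2), 31 of DNA replication (2 and 0) and 25 of mitosis (3 and 1). Of all 16042 tested genes, 843 (5.25%) were called, 2802 had an unadjusted p under 0.05 and DESeq2 called 1273. Among the BET genes, Brd2 had an interaction of -0.26 ± 0.11 (adjusted p 0.245), and the P-TEFb inhibitor gene Hexim1 of 0.20 ± 0.28 (0.819).

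**Figure D3:**
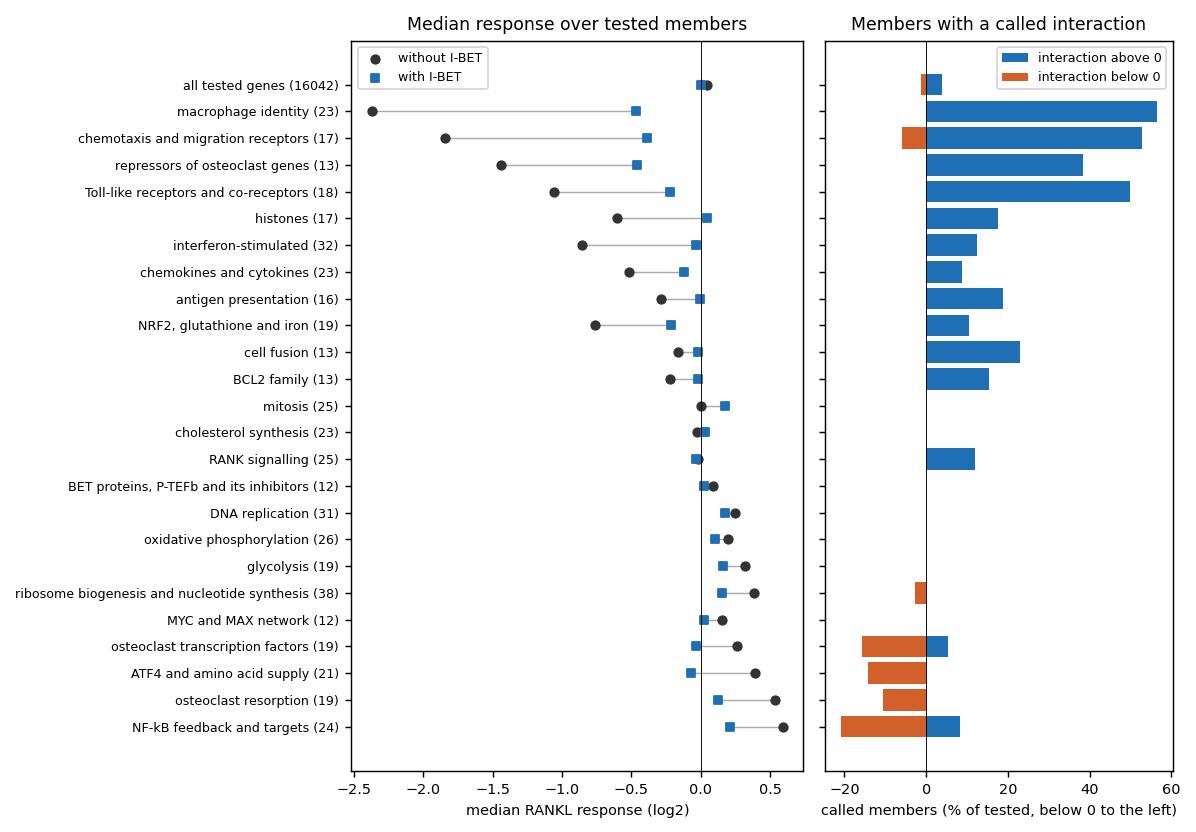
Left, the median fitted RANKL response (log2) of each gene list without I-BET (black circles) and with I-BET (blue squares), with the number of tested genes in brackets. Right, the percentage of tested members with a called interaction above 0 (blue) or below 0 (orange, drawn to the left). The medians with I-BET lie between -0.468 and 0.209, and macrophage identity and the chemotaxis receptors have the largest shares above 0.

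In the main fit, a small part of the RANKL response was called under I-BET as well. The 42 calls with I-BET were 473 with the block and 0 with only the 8 libraries fitted. Of the 42 genes, 36 (85.7%) were also called without I-BET, against 18.9% of all tested genes. These 36 are 1.19% of the 3032, against 0.262% of all tested genes called with I-BET. In both settings 12 rose and 23 fell, and 1, Serinc2, fell without I-BET and rose with it. The genes of this paragraph were picked after their values had been seen. Traf1, a TRAF adaptor, stood at 11.6 and 10.03 CPM untreated, 122 and 142 with RANKL, 2.68 and 2.58 with I-BET, and 23.1 and 8.99 with both. It rose by 3.62 ± 0.33 without I-BET and by 2.61 ± 0.33 with it (adjusted p 0.00905; 0.0588 to 0.225 without I-BET library 1 or 2), from a lower level, so its interaction of -1.01 ± 0.45 was not called (0.257). Rarb, a retinoic acid receptor, stood at 6.26 and 5.47 CPM untreated, 22 and 26.9 with RANKL, 2.08 and 1.70 with I-BET, and 6.42 and 6.33 with both. Its rise of 1.75 ± 0.18 with I-BET (adjusted p 0.00113) was called without each library in turn, and its interaction was -0.32 ± 0.24. Nfkb2, the alternative NF-kB subunit, rose by 1.68 ± 0.18 without and 0.99 ± 0.17 with I-BET (adjusted p 0.0365; 0.0512 to 0.543 without I-BET library 1 or 2 or library 1 of the combination). Among the genes that fell in both, Cd276, an immune checkpoint ligand, stood at 141 and 139 CPM untreated, 30.3 and 32.4 with RANKL, 83.1 and 74.5 with I-BET, and 42.3 and 40.0 with both. Its fall was -2.16 ± 0.10 without and -0.94 ± 0.09 with I-BET (adjusted p 0.00113, called without each library in turn), and no groups overlapped. Serinc2, a membrane protein, stood at 6.47 and 6.0 CPM untreated, 2.21 and 4.36 with RANKL, 3.38 and 2.89 with I-BET, and 11.7 and 7.89 with both. Its interaction was 2.56 ± 0.39 (adjusted p 0.00116), while its rise with I-BET was not called without I-BET library 1 or 2 or library 1 of the combination (0.157 to 0.354), nor its fall without I-BET when untreated library 1 or 2 or RANKL library 1 was left out (0.107 to 0.256).

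The interaction was called in fewer genes at the earlier hours. At 14 hours it was called in 446 genes (2.78%), 366 above 0 (2.28%) and 80 below (0.499%), and at 4 hours in 0 by edgeR (702 at an unadjusted p under 0.05). All 3 time points are set against the same untreated libraries, so their values share error. Ptgs1 had an interaction of -0.02 ± 0.28 at 4 hours, 3.46 ± 0.32 at 14 and 4.57 ± 0.33 at 24. Jdp2 had -1.09 ± 0.25, -2.10 ± 0.26 and -2.77 ± 0.26. Car2 had 0.02 ± 0.22, -0.19 ± 0.22 and -1.64 ± 0.22. The difference of Car2 between 24 and 14 hours, -1.45 ± 0.27, did not pass its test (adjusted p 0.126). The difference between the interactions at 24 and 14 hours does not involve the untreated libraries, and it was called in 4 genes (0.0249%; 0.0125% in each direction). It was 4.35 ± 0.62 in Id1 and 2.53 ± 0.37 in Gadd45g, a stress-induced growth arrest gene (adjusted p 0.0448 each), and -1.33 ± 0.18 in Btg1, an antiproliferative gene (0.0448), and -0.89 ± 0.13 in Lpin2, a phosphatidate phosphatase (0.0479). With the block 148 genes were called, by DESeq2 59, and with only the untreated, 14 hour and 24 hour groups in the fit 0 (566 there at an unadjusted p under 0.05).

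Id1, an inhibitor of differentiation, stood at 3.57 and 2.27 CPM untreated, 0.0743 and 0.101 with RANKL (3 and 4 counts), 2.34 and 1.85 with I-BET, and 1.32 and 0.854 with both at 24 hours. RANKL alone was close to 0, and the interaction was -0.31 ± 0.40 at 14 hours and 4.04 ± 0.55 at 24. Gadd45g stood at 10.5 and 9.98 CPM untreated, 0.669 and 0.605 with RANKL, 4.39 and 3.12 with I-BET, and 4.00 and 2.84 with both, with interactions of 1.33 ± 0.28 and 3.86 ± 0.31. Btg1 stood at 207 and 205 CPM untreated, 286 and 334 with RANKL, 191 and 201 with I-BET, and 178 and 191 with both. Its interaction was 0.65 ± 0.15 at 14 hours and -0.68 ± 0.15 at 24 (adjusted p 0.0128), the latter not called without untreated library 1 or 2, I-BET library 2, RANKL library 2 or library 1 of the combination (0.0533 to 0.0832). Lpin2 had 0.75 ± 0.11 and -0.14 ± 0.11. Of the 4 differences between hours, those of Id1 and Btg1 were called without RANKL library 2 of 14 hours, and those of Id1 and Gadd45g without library 2 of the combination at 24 hours. None was called without any other 1 of the libraries compared.

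**Figure D4:**
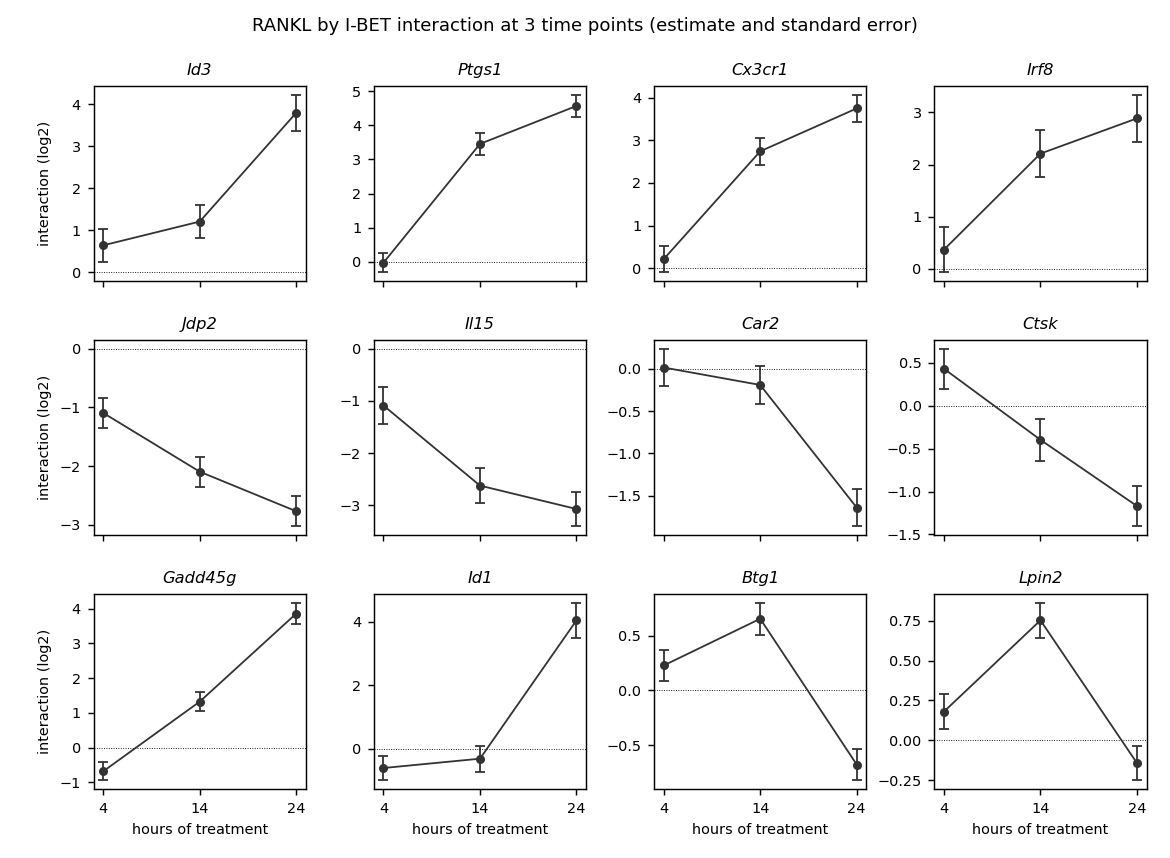
Fitted RANKL by I-BET interaction (log2) against hours of treatment for 12 genes; points are estimates and bars 1 standard error, with 2 libraries per group and the same untreated libraries at each hour. Id3, Ptgs1, Cx3cr1 and Irf8 lie higher at 24 than at 4 hours, Car2 departs from 0 at 24 hours, and the lowest row holds the 4 genes whose values at 24 and 14 hours differed by the test.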

How the data were processed

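RNA sequencing gave 20 libraries in 10 groups of 2. The submitters' processing notes name FastQC, STAR 2.5.3a, DESeq2 1.16.1 and GRCm38 (mm10). The authors deposited read counts per gene and RPKM values. How reads were assigned to genes is not given in the sources used here. The kit named in the labels' protocols does not mark strand, so overlapping and antisense genes cannot be told apart and near copies may share reads. Of 50686 genes, 42745 have a symbol in the deposited table and 7915 took theirs from GENCODE M21.

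Counts were fitted with edgeR 4.0.16 under R 4.3.3. After filterByExpr by group, 16042 genes were tested with TMM scaling. The model held 1 mean per group over all 20 libraries and left 10 residual degrees of freedom. Tests were robust quasi-likelihood F tests with Benjamini-Hochberg adjustment, and calls were made below an adjusted p of 0.05. CPM uses TMM-scaled library sizes. A prior count of 2 was used for the log2 CPM behind the sign comparison and the library correlations, not for the fitted log2 values. Library totals of 19051780 to 62313792 set the precision. On simulated data for the interaction at 24 hours (15858 genes), 9 of 67 genes changed 1.5-fold, 22 of 67 changed 2-fold and 55 of 66 changed 4-fold were called. There were 4 false calls among 15268 unchanged genes. Changed genes had a mean CPM of at least 1, and genes whose expected level with both agents was capped were left out. The simulated libraries varied independently, whereas real libraries of the same number deviated together, so these rates may not hold for the real data.

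Named genes were fixed genes, the 8 largest interactions in each direction among called genes (mean CPM of at least 5, 10 counts in each group, same sign in both library numbers), up to 3 called members of each of 25 lists, and up to 3 per direction for 24 against 14 hours. Not every gene this rule gives is reported here. The interaction, lists and genes were chosen with earlier results of these data known.

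Libraries of the same number deviated together in all 45 pairs of groups (correlations of 0.221 to 0.596, median 0.454), so the numbers pair the samples. The labels do not say what they share. The fit without the number was kept as the main one, so its p-values leave this pairing out, and the block (replicate block) was an alternative. The fitted variation between libraries (biological coefficient of variation) was 0.162 in the main fit and 0.0751 with the block. Further alternatives were RLE factors, no filter, a CPM filter (1 or more in 4 or more libraries), no robust estimation, DESeq2 1.42.0, only the libraries compared, limma 3.58.1 on log2 (RPKM + 1 or 0.1), each library left out, and rRNA-related genes left out. Chosen after seeing the data were the fit without 6 overrepresented genes and the block without untreated library 2. Figures were drawn with matplotlib 3.10.9.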

Additional observations from a re-analysis of the deposited data

Results flagged for a closer look

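The interaction at 24 hours differed from that at 14 hours, by the test of the difference itself, in 4 genes. The untreated libraries cancel out of this difference. It was 4.35 in Id1, 2.53 in Gadd45g, -1.33 in Btg1 and -0.895 in Lpin2 on the log2 scale. Each of these calls was lost in most of the fits that left out 1 library, as described above, and Id1 rests on 3 and 4 counts in the RANKL libraries at 24 hours. In Btg1 and Lpin2 the estimate was above 0 at 14 hours and below 0 at 24 hours, although at 24 hours the value of Lpin2 did not pass the test.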

How the results depend on the processing

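All 57 named genes with a called interaction kept its sign in all 20 alternatives and were called with the replicate block, and 41 were called in all 8 fits that left out 1 library. The count of interactions above 0 was 632; it was 1663 with the block and 1363 with the block and without untreated library 2, and 420 to 677 with 1 library left out. The count below 0 was 211; it was 445 without a low-count filter, 1278 with the block, 607 with the block and without untreated library 2, 390 by DESeq2, 97 with only the libraries compared, and 96 to 302 with 1 library left out. The count of RANKL calls with I-BET (42) was 236 without a filter, 473 with the block, 378 with the block and without untreated library 2, 143 by DESeq2, 0 with only the libraries compared and 2 to 14 with 1 library left out. The RANKL calls without I-BET (3032) were 5901 with the block and 1730 to 2349 with 1 library left out. The calls for 24 against 14 hours (4) were 90 without a filter, 13 with the CPM filter, 148 with the block, 117 with the block and without untreated library 2, 59 by DESeq2, 0 with only the libraries compared, 0 on log2 (RPKM + 0.1) and 0 to 2 with 1 library left out. The sign of the interaction, not called in any case, turned in Tnfrsf11a with the CPM filter (-0.0156), on log2 (RPKM + 1) (-0.00335) and on log2 (RPKM + 0.1) (-0.00374), and with 1 library left out in Tnfrsf11a (-0.39 to 0.526), Fos (-0.679 to 0.141) and Dcstamp (-0.91 to 0.164). The block raised the uncalled Bcl6, Ocstamp, Acp5, Atp6v0d2 and Nfatc1 past the threshold and changed no other call of a named gene. The cause of these differences was not tested. Named genes were mostly chosen for a call and for the same sign in both library numbers. The kept signs and block calls of the 57 come from these same libraries and therefore test nothing. Leaving out 1 library leaves its group with a lone library, whose variation is taken to be that of the remaining groups. In simulated data, where libraries varied independently, most 4-fold but few 1.5-fold interactions were found, so smaller interactions may be missed.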
